A study of Homo sapiens with 12 samples.

Results

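RNA-seq was done in PANC-1 cells, a human pancreatic adenocarcinoma line, in which the transcription factor gene FOSL1 was knocked down. The libraries were chosen by cell line and shRNA, and they are 6 of the 12 libraries of the series. In 3 of them the cells carried an shRNA against FOSL1 (labelled sh2) and in the other 3 a scrambled shRNA, which has no intended target. Both groups were grown in DMEM with fetal bovine serum. For the FOSL1 shRNA the study's methods describe infection with virus made from pLKO.1 plasmids followed by puromycin selection. Whether the scramble cells had the same infection and drug is not stated there. The 6 libraries not used in the comparison come from H1299 lung adenocarcinoma cells with HDAC2 or scrambled shRNA. A single cell line and a single FOSL1 shRNA were sequenced, so an effect of FOSL1 and an effect of this shRNA cannot be told apart. The labels number 3 biological replicates in each group, and whether each was infected separately is not given in the sources used here. The p values may therefore cover only the spread between cultures.

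FOSL1 encodes FRA-1, a FOS family protein that pairs with JUN proteins to form the AP-1 transcription factor. AP-1 dimers bind the palindrome TGANTCA, most often in enhancers, and act downstream of RAS and MAP kinase signalling, which is active in most pancreatic cancers. FRA-1 is best known for genes of invasion, matrix remodelling and cell adhesion, and many of its known targets code for secreted proteins, receptors and other transcription factors.

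The target of each shRNA is shown because it decides which transcripts can pair with it. Both were read from the study's supplementary table of oligonucleotides, 5′ to 3′, and the capitals mark the bases that pair with the seed (bases 2 to 8) of the guide strand.
FOSL1 target: gagctgcagtgGATGGTAc
Scramble target: cgtacgcggaaTACTTCGa
FOSL1 guide: gTACCATCcactgcagctc
Scramble guide: tCGAAGTAttccgcgtacg
In the guides, which were taken as the reverse complements of the targets, the capitals are the seed itself. The FOSL1 target is 19 bases long and lies in the coding part of exon 2 of 4 of FOSL1 (GENCODE 44, GRCh38, chr11:65896943-65896961, minus strand). The supplementary table lists 1 shRNA for FOSL1, and whether it is the one labelled sh2 is not stated there.

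FOSL1 itself (ENSG00000175592.9, chromosome 11, 65892049 to 65900573) gave 169, 159 and 158 CPM, counts per 1000000 counts after TMM scaling, in the knockdown libraries. Its level was 212, 209.5 and 234 CPM in the scramble libraries. The groups did not overlap, and a log2 fold change of -0.43 with a standard error of 0.0617 (adjusted p = 2.9e-06, edgeR) stayed short of the fold threshold used here. Of the other AP-1 genes, JUN (log2 fold change -0.13, adjusted p = 0.056, edgeR) and FOSL2 (0.13, adjusted p = 0.15) did not pass the test, and FOSB (0.23) was not called. JUNB fell by 0.80 and FOS by 0.59 on the log2 scale, FOS by less than the fold threshold without knockdown replicate 3 (-0.48). JUND rose by 0.76 and JDP2, which encodes a repressor of AP-1, by 1.34 on the log2 scale. JUN, FOSL2, FOSB, FOS and JUND are named after their values were seen.

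Total counts were 18184808 to 19173421 in the 6 libraries. Mitochondrially encoded genes held 12.55% to 13.3% of the counts in the knockdown libraries and 6.99% to 7.29% in the scramble libraries. Scramble replicate 1 stood apart, since its counts gave a chi-square of 7.87 and 10.7 per degree of freedom over tested genes against scramble replicates 2 and 3, while these 2 had 3.23 and the knockdown libraries 2.62 to 2.93 among themselves. Of 8 ductal and epithelial markers 7 passed the filter on low counts, although KRT7 was at 1.20, 1.56 and 1.72 CPM after knockdown and 3.27, 2.16 and 2.87 CPM in scramble cells. Of 4 mesenchymal markers none was called higher and 1 lower. VIM, a mesenchymal filament gene, was at 2207, 2308 and 2119.8 CPM after knockdown and 1912, 1831 and 1906 CPM in scramble cells. The marker called lower was FN1, at 2.28 to 3.86 CPM after knockdown and 13.7 to 15.3 CPM in scramble cells. The acinar genes PRSS1 and PTF1A and the endocrine genes INS and SST had no count in any library. The 5 acinar markers summed to 1.51 to 2.45 CPM (of total counts, with TMM scaling) after knockdown and 0.725 to 1.06 CPM in scramble cells. Nearly all of it was CEL, which was called higher (1.37). The 5 immune markers summed to 2.20 to 2.50 CPM and 3.24 to 3.83 CPM, mostly CD14, which was called lower (-0.62, but not in 5 of 14 alternative fits), while MS4A1 had no count. Their part in the results was not tested. The summed endothelial, endocrine and lung epithelial markers stayed under 1 CPM in each library.

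A gene was called higher or lower at an adjusted p under 0.05 in edgeR's quasi-likelihood test if its log2 fold change was also over 0.5 or under -0.5. The words "rose" and "fell" are used for such calls. Of 16345 tested genes, 1740 (10.6%) were called higher and 2586 (15.8%) lower, and the median log2 fold change of all tested genes was -0.02. The knockdown and scramble libraries did not overlap for 9351 genes (57.2%), so groups that do not overlap are common here. Classes of genes departed from these shares in different directions. Numbered ZNF zinc finger genes were called higher in 28.0% of cases and lower in 5.61%, while receptors and channels (8.86% higher, 34.6% lower) and secreted and matrix proteins (12% higher, 36.0% lower) leaned the other way. Transcription factors other than numbered ZNF genes (14.7% higher, 20.7% lower) and non-coding RNA genes (13.4% higher, 17.5% lower) lay closer to the shares of all genes. Levels are not set apart in these shares. Without scramble replicate 1 there were 1939 higher and 2508 lower genes.

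**Figure D1:**
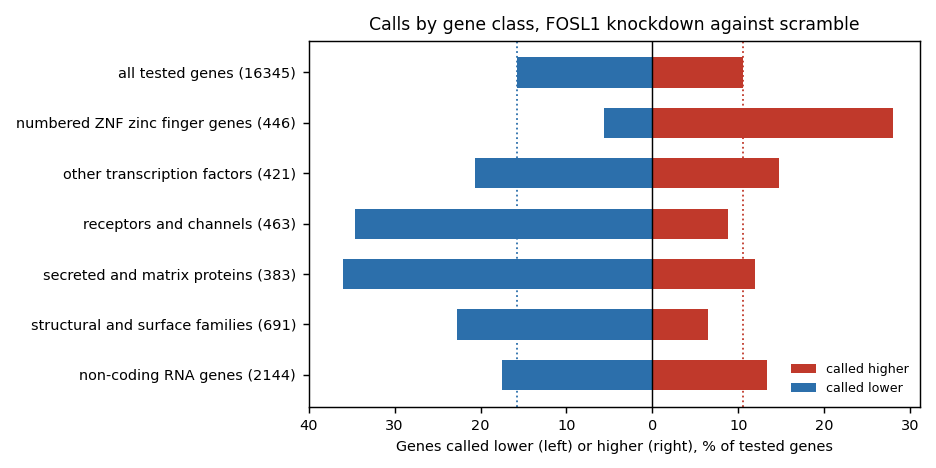
Share of tested genes called lower (bars to the left) or higher (bars to the right) in FOSL1 knockdown against scramble PANC-1 cells (x axis, % of tested genes) for each gene class (y axis, number of tested genes in parentheses). Dotted lines mark the shares among all tested genes, 15.8% lower and 10.6% higher; numbered ZNF genes reach furthest to the right, and receptors and secreted proteins furthest to the left.

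Shares of calls depend on the level of expression, so classes were set beside all genes of the same mean level. Among genes at 1 to 10 CPM, 13.9% of all tested genes were called higher and 26.6% lower. In that range 31.9% of 229 numbered ZNF genes were called higher and 6.55% lower. Receptors and channels of the same range had 9.13% higher and 42.8% lower (208 genes), and secreted and matrix proteins 15.0% higher and 40.6% lower (160 genes). At 10 to 100 CPM the share called lower was 10.2% of all genes, 29.5% of receptors and channels, 36.4% of secreted and matrix proteins and 4.62% of numbered ZNF genes. Above 100 CPM it was 5.39% of all genes, 11.8% of 51 receptors and channels and 18.8% of 48 secreted and matrix proteins. The direction of each class against all genes was thus the same in these 3 ranges for the share called lower. No test of classes was run.

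**Figure D2:**
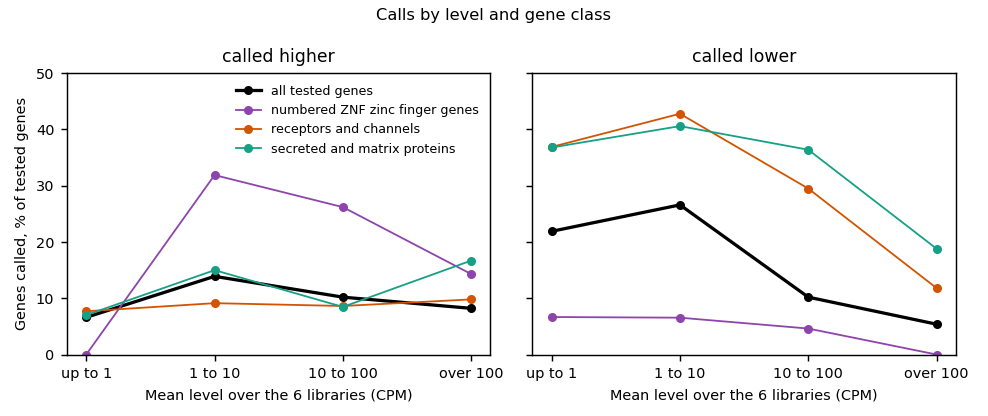
Share of tested genes called higher (left) or lower (right) (y axis, %) by mean level over the 6 libraries (x axis, CPM) for all tested genes and 3 gene classes. At 1 to 10 CPM, numbered ZNF genes lie at 31.9% called higher against 13.9% of all genes, and receptors and channels at 42.8% called lower against 26.6%; the ranges up to 1 CPM and over 100 CPM hold only 15 and 7 numbered ZNF genes.

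Zinc finger genes with a ZNF number, most of which encode C2H2 zinc finger proteins and many of them KRAB repressors, rose more often than they fell. Of 446 tested, 125 rose (28.0%, against 10.6% of all tested genes), 25 fell (5.61%, against 15.8%) and 296 were not called. The median log2 fold change was 0.28 against -0.02 for all genes. ZNF583 (ENSG00000198440.9, chromosome 19, 56397966 to 56436035) was at 4.62, 3.91 and 3.01 CPM after knockdown and at 1.14, 1.13 and 1.11 CPM in scramble cells. It rose by 1.76 (log2, standard error 0.247) with an adjusted p of 2.2e-06 in edgeR, and all knockdown libraries lay above all scramble libraries. For ZNF75A the levels were 23.4, 25.9 and 24.2 CPM after knockdown and 6.90, 8.35 and 8.57 CPM in scramble cells, a rise of 1.62 on the log2 scale (adjusted p = 2.5e-11, edgeR). ZNF239 was at 24.7, 25.2 and 24.6 CPM against 7.42, 9.17 and 10.8 CPM (1.44), with little spread in the knockdown group. ZNF79 (1.59), ZNF416 (1.57), ZNF613 (1.51), ZNF69 (1.43), ZNF786 (1.39) and ZNF879 (1.38) rose as well, in log2 fold change. The rises were not limited to the large zinc finger clusters of chromosome 19. There 58 of 217 tested ZNF genes rose and 13 fell. Rises numbered 12 of 30 genes on chromosome 16, 10 of 29 on chromosome 7 and 7 of 16 on chromosome 10, with no fall on chromosome 16 and 1 on each of the others. The genes that fell were led by ZNF185 (6.10, 6.26 and 5.85 CPM against 27.9, 21.9 and 23.9 CPM), whose protein is an actin-binding LIM domain protein despite the name, and by ZNF853 (-1.85). Across the 14 alternative fits, 114 to 138 of these genes were called higher and 20 to 25 lower. Reads of related zinc finger genes may be shared, and this was not tested.

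Among 93 tested homeobox genes, the 26 of the HOX clusters and the other 67 had different counts. HOX genes encode the factors that set position along the body axis, and their median log2 fold change was 0.50. Of these 26 genes 12 rose (46.2%, against 10.6% of all tested genes), none fell (against 15.8%) and 14 were not called. They were spread over the 4 clusters, with 2 of 7 tested genes called higher in HOXA, 4 of 9 in HOXB, 5 of 8 in HOXC and 1 of 2 in HOXD. HOXB3 was at 224, 204 and 215 CPM after knockdown and 135, 125 and 121 CPM in scramble cells (0.75 ± 0.0630, log2 fold change with its standard error, adjusted p = 5.7e-10, edgeR). HOXC9 was at 32.2, 28.3 and 33.6 CPM against 20.9, 19.3 and 19.6 CPM, and HOXC6 at 38.0, 38.9 and 43.0 CPM against 24.8, 25.7 and 26.9 CPM. In none of these did the groups overlap. The largest log2 fold changes were those of HOXA2 (1.15) and HOXD4 (1.01), both with few counts, and the HOXB genes that were called rose by 0.56 (HOXB6) to 0.77 (HOXB8). HOXA13 had the lowest value (-0.44) and was not called. HOX genes share exon bases with neighbouring HOX and antisense genes, 11.7% of those of HOXB3 and 16.1% of those of HOXC6, so their counts are not fully separate. Of the other homeobox genes, 6 rose, 17 fell and 44 were not called (median -0.10). LHX6, a LIM homeobox factor, was at 0.855, 1.17 and 1.07 CPM against 4.62, 5.41 and 4.44 CPM (-2.21), and CDX2, a factor of intestinal epithelium, at 3.88, 3.80 and 3.87 CPM against 9.65, 9.79 and 8.57 CPM (-1.28). LHX1 (-1.59) and PITX3 (-1.35) also fell, and PITX1 (0.96) rose. Without scramble replicate 1, 15 HOX genes rose and none fell. HOX genes beyond HOXA2 and HOXD4 are named here after their values were seen.

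**Figure D3:**
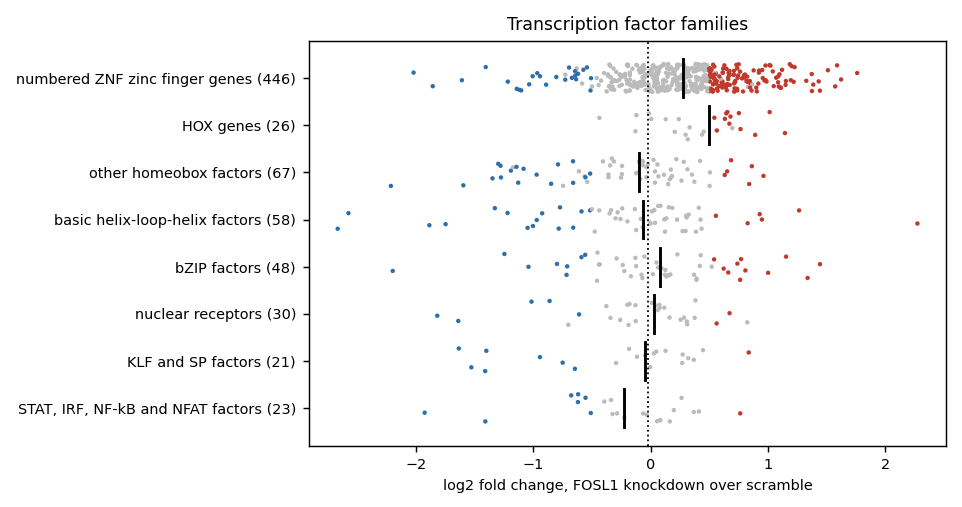
Difference between FOSL1 knockdown and scramble cells (x axis, log2 fold change) for each tested gene (point) of 8 transcription factor families (y axis, number of tested genes in parentheses; vertical position within a family is random). Red points were called higher, blue points lower and grey points not called, black bars are family medians and the dotted line is the median of all tested genes (-0.02); the HOX genes (median 0.50) have no blue point.

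Some other families of transcription factors had larger shares called lower than the 15.8% of all tested genes. Others were near it or under it, with 16.7% of bZIP genes, 16.7% of nuclear receptor genes and 13.3% of forkhead genes. T-box, GATA, RUNX, PAX and TEAD genes had 26.1% called lower and 30.4% higher. The median of the KLF and SP genes, counted next, was -0.05, against -0.02 for all genes. Of 21 KLF and SP genes 7 fell (33.3%) and 1 rose, and of 23 STAT, IRF, NF-kB and NFAT genes 7 fell (30.4%) and 1 rose. Of 58 basic helix-loop-helix genes 15 fell (25.9%) and 6 rose. The last family was not split by level, and the share of all genes called lower was 26.6% at 1 to 10 CPM and 10.2% at 10 to 100 CPM. KLF4, a factor of epithelial differentiation, was at 6.04, 5.92 and 4.40 CPM against 14.1, 16.4 and 16.6 CPM, a log2 fold change of -1.53 (adjusted p = 2.1e-09, edgeR). NFATC4, a calcium-regulated factor, was at 4.05, 3.91 and 5.42 CPM against 19.9, 15.4 and 15.7 CPM (-1.92). The only gene of that family to rise was STAT6 (0.76), which acts downstream of interleukin-4. MYCL, the L-MYC gene, was at 1.14, 1.34 and 1.99 CPM against 10.6, 9.27 and 8.72 CPM and had the largest decrease of all transcription factor genes that were named (-2.66). ATOH8 (2.00, 1.34 and 3.17 CPM against 0.519, 0.464 and 0.353 CPM) had the largest increase (2.27), with few counts.

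NR1D1, which encodes the clock repressor REV-ERB alpha, was at 19.7, 18.8 and 18.0 CPM after knockdown and 68.0, 69.0 and 62.2 CPM in scramble cells (-1.82, adjusted p = 6.3e-15, edgeR). Its paralog NR1D2 (9.64, 8.88 and 10.1 CPM against 15.1, 18.5 and 18.4 CPM, -0.86) and DBP (9.58, 10.2 and 10.6 CPM against 27.3, 24.6 and 20.1 CPM, -1.24), whose product binds D-boxes, fell by less. These 3 genes, which belong to the circadian clock, were set side by side after their values were seen, and no list of clock genes was counted. The exons of NR1D1 overlap those of THRA on the other strand over 18% of their bases. Immediate early nuclear receptor genes NR4A1 (-1.64) and NR4A2 (-1.01) fell too. Among the GATA genes, GATA5 (86.5, 76.4 and 89.3 CPM against 46.0, 38.4 and 39.2 CPM) and GATA4 (0.60) rose, while GATA6, a factor of the classical state of pancreatic cancer, was at 2.05, 1.28 and 1.34 CPM against 5.29, 3.09 and 3.08 CPM and fell (-1.29). PAX2 (0.88), SOX18 (1.30), SOX12 (0.87), FOXQ1 (1.22), FOXF2 (0.93), E2F3 (0.87), ERF (0.83) and TFEB (1.27) rose in log2 fold change. TBX2 (-1.08), TFAP2C (-1.39), TP73 (-1.08), ETV4 (-1.01) and SNAI1 (-0.69) fell.

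Receptors and channels were called lower far more often than higher. Of 463 tested, 41 rose (8.86%, against 10.6% of all tested genes), 160 fell (34.6%, against 15.8%) and 262 were not called. The median was -0.34 against -0.02 for all genes. NGFR, the neurotrophin receptor that binds all neurotrophins (ENSG00000064300.9, chromosome 17, 49495293 to 49515008), was at 2.74, 3.80 and 3.12 CPM after knockdown and 75.1, 65.9 and 59.7 CPM in scramble cells. Its log2 fold change was -4.37 (standard error 0.124), the largest fall of a receptor or channel gene averaging 1 CPM or more (adjusted p = 1.1e-18, edgeR), and 27.2% of its exon bases overlap genes on the other strand, whose reads cannot be told apart because the library kit does not mark strand. Of 21 TNF receptor family genes 9 fell (42.9%, against 15.8% of all tested genes) and 1 rose, TNFRSF12A (0.75), the receptor of TWEAK. TNFRSF10D (-1.87) and TNFRSF21 (-1.01) were among those that fell.

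Of 35 receptor tyrosine kinase genes, 11 fell (31.4%, against 15.8% of all tested genes) and 3 rose (8.57%, against 10.6%). EPHB6, an ephrin receptor without kinase activity, was at 1.65, 1.17 and 1.45 CPM against 10.2, 9.27 and 9.07 CPM (-2.74), and INSR, the insulin receptor, at 3.31, 4.64 and 3.87 CPM against 13.8, 13.4 and 12.6 CPM (-1.75, adjusted p = 4.5e-10, edgeR). In both, the highest knockdown library lay well under the lowest scramble library. PDGFRB (-2.74), ERBB3 (-1.44) and all 4 FGF receptor genes fell, from -1.42 for FGFR2 to -0.51 for FGFR3, with FGFR1 at -0.79 and FGFR4 at -0.59. FGFR3 lay at the fold threshold and was not called in 9 of the 14 alternative fits, with -0.40 without scramble replicate 1. EGFR (0.24) and MET (-0.36) were not called. Of those that rose, RET is the receptor of GDNF (0.62) and MST1R that of macrophage-stimulating protein (0.55). ERBB3, EGFR, MET and the FGF receptors are named here after their values were seen.

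G protein-coupled receptor genes fell in 50 of 127 cases (39.4%, against 15.8% of all tested genes) and rose in 13 (10.2%, against 10.6%). CXCR4, the receptor of the chemokine CXCL12, was at 0.798, 1.06 and 1.24 CPM against 5.14, 5.26 and 5.90 CPM (-2.38), and the oxytocin receptor OXTR (-1.92) and the lysophosphatidic acid receptor LPAR3 (-1.85) fell too. Among the WNT receptors of the Frizzled family, FZD6 rose from 15.4, 19.6 and 20.7 CPM to 37.4, 38.7 and 38.7 CPM (1.04), while FZD7, looked up after that value was seen, fell from 13.3, 13.1 and 12.05 CPM to 7.13, 7.99 and 7.41 CPM (-0.77). P2RY6, a receptor of uridine diphosphate (1.45), and the vasopressin receptor AVPR2 (1.26) rose from few counts. In the Notch pathway the ligand genes moved apart. DLL1 (2.62, 3.35 and 2.58 CPM against 9.50, 10.0 and 8.07 CPM, -1.69), DLL4 (-1.55) and DLL3 (-0.88) fell, JAG2 (294, 283 and 307 CPM against 206, 162 and 181 CPM, 0.68) rose, and the receptor gene NOTCH3 fell (-0.74). The chains of the interferon gamma receptor also moved apart, with IFNGR1 at 40.2, 37.8 and 41.1 CPM against 15.7, 20.8 and 21.6 CPM (1.04) and IFNGR2 at 53.1, 56.3 and 55.5 CPM against 85.1, 75.9 and 75.1 CPM (-0.52). Without scramble replicate 1, IFNGR2 was at -0.43 and short of the fold threshold, as it was in 6 of the 14 alternative fits. DLL3, NOTCH3 and IFNGR2 are named after their values were seen.

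Potassium channel genes fell in 14 of 39 cases (35.9%) and rose in 4. Sodium, calcium and TRP channel genes fell in 12 of 45 (26.7%) and rose in 6, and cadherin and protocadherin genes fell in 18 of 63 (28.6%) and rose in 4. The share called lower was 15.8% of all tested genes, 26.6% of those at 1 to 10 CPM and 10.2% of those at 10 to 100 CPM. These families were not split by level. CACNG7, an auxiliary subunit of calcium channels and AMPA receptors, was at 18.5, 17.9 and 17.0 CPM against 82.0, 78.3 and 67.1 CPM (-2.09, adjusted p = 1.4e-15, edgeR), and its neighbour in the same gene family CACNG6 fell by 1.25 on the log2 scale. UNC5A, a netrin receptor (-2.61), CDHR5 (-2.54) and the desmosomal cadherins DSC3 (-1.64) and DSC2 (-1.32) fell. CHRNA10, a nicotinic receptor subunit, rose from 0.934, 0.412 and 1.16 CPM to 4.73, 3.46 and 4.19 CPM (2.29), while CHRNA3 (-1.54) and CHRNA4 (-1.14) fell. Among 20 integrin genes, also not split by level, 5 fell (25.0%) and 2 rose (10.0%, near the 10.6% of all tested genes). ITGB3, whose product pairs with the alpha-v chain, rose from 0.986, 2.78 and 2.32 CPM to 4.73, 6.93 and 3.87 CPM (1.34), with a wide spread in both groups and 33.2% of its exon bases shared with a gene on the same strand. ITGB4, the hemidesmosome integrin chain, rose by 0.59.

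**Figure D4:**
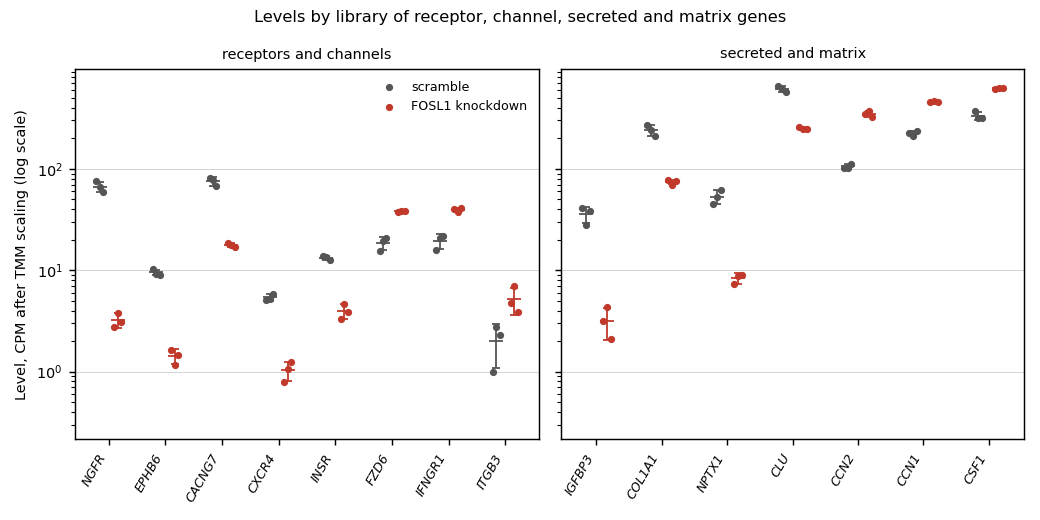
Levels (y axis, CPM after TMM scaling, log scale) of receptor and channel genes (left) and secreted and matrix genes (right) in each PANC-1 library, with 1 point per library and the mean and SD of the 3 libraries as bars. NGFR lies at 2.74 to 3.80 CPM after FOSL1 knockdown (red) and 59.7 to 75.1 CPM in scramble cells (grey), and CCN2 at 324 to 372 CPM and 103 to 113 CPM; the groups do not overlap for any gene drawn.

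Secreted and matrix proteins fell in 138 of 383 tested genes and rose in 46 (median -0.28). Matrix and protease families had the following counts. Of 28 collagen genes 15 fell (53.6%) and 3 rose (median -0.69). Of 10 laminin genes 4 fell (40.0%) and none rose. Of 38 genes for matrix metalloproteinases, ADAM and ADAMTS proteases 17 fell (44.7%) and 2 rose. Of 34 serine protease and kallikrein genes 16 fell (47.1%) and none rose. The share called lower was 15.8% of all tested genes. COL1A1, the main chain of fibrillar type I collagen, was at 77.0, 70.0 and 76.4 CPM against 269, 241 and 213 CPM (-1.69, adjusted p = 3.4e-15, edgeR). MMP1, interstitial collagenase and a classic AP-1 target, was at 0.513, 1.01 and 0.537 CPM against 3.79, 6.23 and 5.80 CPM (-2.93). In both genes the groups were well apart. The list of fibroblast and smooth muscle markers is rich in matrix genes. It summed to 11.5 to 13.1 CPM (of total counts, with TMM scaling) after knockdown and 11.8 to 14.2 CPM in scramble cells. Its members DCN and LUM had at most 3 counts in any library. Most of that sum was COL3A1, which was at 11.97, 10.9 and 9.88 CPM against 9.03, 7.52 and 8.87 CPM and not called (0.37), while PDGFRB was at 0.114, 0.838 and 0.698 CPM against 3.84, 3.66 and 3.73 CPM and fell. COL13A1 (-2.70), COL6A3 (-1.62), FBN1 (-2.26), FN1 (-2.19), BGN (-2.45), ADAMTS7 (-1.97) and the membrane protease ST14 (-2.03) fell too. COL2A1 (10.1, 10.8 and 13.3 CPM against 5.55, 4.22 and 3.48 CPM, 1.37), COL11A1 (0.74) and COL26A1 (0.91) were the collagen genes that rose.

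Of 38 FGF, PDGF, VEGF and other growth factor genes 15 fell (39.5%, against 15.8% of all tested genes) and 4 rose (10.5%, against 10.6%). Single genes among growth factors and their modulators moved far in either direction. IGFBP3, a binding protein of insulin-like growth factors (ENSG00000146674.15, chromosome 7, 45912245 to 45921874), was at 3.14, 4.30 and 2.09 CPM against 40.8, 28.2 and 38.2 CPM (-3.49 ± 0.171, log2 fold change with its standard error, adjusted p = 2.2e-14, edgeR). CCN2, the connective tissue growth factor (ENSG00000118523.6, chromosome 6, 131948176 to 131951372), went the other way, at 346, 372 and 324 CPM against 103, 103 and 113 CPM (1.71, standard error 0.0650, adjusted p = 1.4e-16). Its family member CCN1 was at 451, 469 and 452 CPM against 226, 210.5 and 235 CPM (1.03). Both CCN genes are known targets of YAP and TEAD factors. CSF1, the growth factor of macrophages, rose from 371, 316 and 319.9 CPM to 619, 620.5 and 634 CPM (0.90), and GDF15, a stress-induced hormone named after its values were seen, from 407, 409 and 416 CPM to 714, 639 and 640.2 CPM (0.69). Of 18 genes for WNT ligands and antagonists, 9 fell and 1 rose (median -0.75). SFRP1, a secreted WNT inhibitor, was at 14.0, 15.1 and 15.8 CPM against 62.3, 61.2 and 66.9 CPM (-2.08), and WNT4 (-1.99), RSPO4 (-2.29) and NOTUM (-1.61) fell as well. The gene that rose was the inhibitor DKK1 (75.4, 61.1 and 71.5 CPM against 39.4, 34.4 and 37.7 CPM, 0.90). TGF-beta family ligands and antagonists had 7 rises (25.9%) and 6 falls (22.2%) among 27 genes, with LTBP2 (0.88) higher and BMP6 (-1.09) and BMP7 (-0.76) lower.

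Of 12 chemokine genes 4 rose (33.3%, against 10.6% of all tested genes) and 1 fell (8.33%, against 15.8%). Among them were CCL5 (12.8, 13.8 and 11.8 CPM against 6.54, 6.65 and 6.55 CPM, 0.96) and CXCL5 (0.82) with higher levels and CXCL16 (-1.10) with lower ones. Complement and acute phase genes were even, with 6 of 25 (24.0%) in each direction. CLU, the chaperone clusterin, was at 261, 245 and 249 CPM against 654, 615 and 573 CPM (-1.29), while CP (0.85) and C5 (0.93) rose. SERPINA3, an acute phase protease inhibitor, rose from 0.778, 0.824 and 0.302 CPM to 2.68, 4.13 and 2.52 CPM (2.29), with 31.7% of its exon bases shared with a gene on the same strand. Among hormones and neuropeptides, NPTX1, a synaptic pentraxin, was at 7.24, 8.83 and 9.02 CPM against 44.9, 53.2 and 61.4 CPM (-2.67), and STC1 (-2.16), VGF (-1.37) and SCG2 (-1.19) fell, whereas ADM2, a peptide of the calcitonin family, rose from 6.75, 7.16 and 7.16 CPM to 20.6, 22.7 and 25.8 CPM (1.71). The cytokine gene TNFSF9 fell (-2.45), and its receptor gene TNFRSF9 fell too (-1.05). Of 7 mucin genes MUC5B (-1.30), MUC5AC (-1.04) and MUC3A (-1.04) fell and MUC6 (1.29) rose.

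Structural and surface families fell in 157 of 691 tested genes (22.7%, against 15.8% of all tested genes) and rose in 45 (6.51%, against 10.6%). Keratin genes had 5 falls among 9 (55.6%) and no rise. KRT8 was at 788, 753 and 766 CPM against 1566, 1355 and 1173 CPM (-0.83). KRT18, its partner in simple epithelia, was at 317, 320.4 and 317 CPM against 514, 465 and 414 CPM (-0.55). Without scramble replicate 1, KRT18 was at -0.44 and short of the fold threshold. KRT19, the duct keratin, was not called (0.22). GJA1, the gap junction protein connexin 43, was at 53.7, 63.0 and 63.8 CPM against 133, 156 and 145 CPM (-1.26), and the tight junction genes CLDN4 (60.6, 54.5 and 58.3 CPM against 155, 135 and 126 CPM, -1.26) and CLDN3 (-1.24) fell, while CLDN15 (0.70) rose. Of 19 dual-specificity phosphatase genes, many of which switch off MAP kinases, 7 fell (36.8%) and none rose. The falls were led by DUSP15 (-1.98), DUSP1 (-1.96) and DUSP2 (-1.52). The median of the family was 0.04, above the -0.02 of all genes. Small GTPase genes fell in 20 of 119 cases (16.8%, against 15.8% of all tested genes) and rose in 4 (3.36%, against 10.6%). RAB3B, of regulated exocytosis, was at 4.16, 5.25 and 6.23 CPM against 18.4, 19.7 and 25.4 CPM (-2.02), and RND1 (-1.98) fell, while RHOJ (1.09) and RHOG (0.68) rose. Solute carriers fell in 62 of 237 cases (26.2%, against 15.8% of all tested genes) and rose in 15 (6.33%, against 10.6%). They were not split by level, and the share of all genes called lower was 26.6% at 1 to 10 CPM and 10.2% at 10 to 100 CPM. Beyond sugar and lipid transport, SLC7A2 (-2.30), a cationic amino acid carrier, SLC22A17 (-2.16) and the bicarbonate carrier SLC4A8 (-1.72) fell, and SLC35F6 (1.22) and the potassium chloride cotransporter SLC12A7 (0.75) rose. ANXA1, an anti-inflammatory annexin, rose from 100.2, 118 and 117 CPM to 208, 195 and 194 CPM (0.83).

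Of 2144 tested non-coding RNA genes, 288 rose (13.4%), 376 fell (17.5%) and 1480 were not called. These shares were close to those of all genes (10.6% and 15.8%) with levels not set apart. At 1 to 10 CPM 15.6% of 1199 rose and 18.3% fell, against 13.9% and 26.6% of all genes. At 10 to 100 CPM 20.8% of 154 rose and 13.6% fell, against 10.2% of all genes in each direction. Numbered LINC genes had 40 rises and 37 falls among 208, antisense genes 43 and 73 among 385, snoRNA genes 5 and 5 among 18 and SNHG and GAS5 genes 2 and 4 among 24. Of 18 tested mitochondrially encoded tRNA and rRNA genes 12 rose (66.7%) and none fell, with MT-TD (2.44) and MT-TE (2.15) among those that rose. The rises were mostly in genes with few counts, as none of the 4 over 100 CPM was called and with at least 10 counts in every library 5 were called. They stand beside the higher mitochondrial share of counts given above, and whether both have 1 source was not tested. MRPL23-AS1 was at 0.228, 0.223 and 0.215 CPM against 1.35, 2.52 and 2.07 CPM and fell by 3.12 on the log2 scale. It and the clone-named AL133230.1 (-3.19) had the largest falls of the class among genes averaging 1 CPM or more.

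The 23 tested host genes of microRNAs had 7 rises (30.4%, against 10.6% of all tested genes) and 2 falls (8.70%, against 15.8%). Of the 16 at 1 to 10 CPM, 3 rose (18.8%, against 13.9% of all genes of that range) and 2 fell (12.5%, against 26.6%). MIR503HG was at 12.6, 11.8 and 14.4 CPM against 3.53, 2.73 and 3.68 CPM (1.96, standard error 0.152, adjusted p = 1.3e-10, edgeR), and MIR22HG at 24.5, 24.2 and 20.8 CPM against 7.73, 7.73 and 8.52 CPM (1.53, adjusted p = 6.9e-11). MIRLET7BHG (20.3, 21.8 and 22.2 CPM against 13.5, 11.3 and 11.8 CPM, 0.81, named after its values were seen), MIR1915HG (0.84) and MIR222HG (0.84) rose as well. MIR3142HG (-0.62), the host of miR-146a, and MIR3936HG (-0.79) fell, MIR3142HG by less than the fold threshold (-0.47) without knockdown replicate 3. Mature microRNAs were looked up in RefSeq within these hosts except MIRLET7BHG. Of 13 found, 5 that lie in MIR503HG, MIR22HG, MIR222HG and MIR3142HG are shown, to name the sequences that these host transcripts hold. The other arms and hosts are left out. Those shown are RefSeq sequences on GRCh38.p14, with the seed (bases 2 to 8) in capitals.
hsa-miR-503-5p, in MIR503HG: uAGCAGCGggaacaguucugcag
hsa-miR-22-3p, in MIR22HG: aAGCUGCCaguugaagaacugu
hsa-miR-221-3p, in MIR222HG: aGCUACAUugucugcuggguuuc
hsa-miR-222-3p, in MIR222HG: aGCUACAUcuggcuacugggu
hsa-miR-146a-5p, in MIR3142HG: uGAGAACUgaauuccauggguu
The 2 microRNAs shown for MIR222HG share 1 seed, GCUACAU, and the other seeds shown differ from it and from each other. Mature microRNAs were not measured in these libraries.

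The imprinted locus around MEG3 on chromosome 14 changed in both directions. MEG3, a maternally expressed lncRNA (ENSG00000214548.18, chromosome 14, 100779410 to 100861031), was at 371, 381 and 339 CPM after knockdown and 799.7, 839 and 820.3 CPM in scramble cells (-1.17, standard error 0.0564, adjusted p = 1.6e-14, edgeR). MEG8, downstream of it on the same strand, was at 8.95, 5.75 and 5.16 CPM against 11.2, 14.6 and 14.2 CPM (-1.01). MEG9, farther downstream (ENSG00000223403.6, chromosome 14, 101042908 to 101072937), was at 3.02, 3.52 and 3.38 CPM against 0.519, 0.464 and 0.655 CPM and rose by 2.58 on the log2 scale, the largest increase of a non-coding gene that averaged 1 CPM or more. The coding genes at both ends of the locus fell, DLK1 from 23.6, 18.0 and 19.5 CPM to 14.3, 13.9 and 12.7 CPM (-0.58) and DIO3 from 6.80, 5.87 and 5.34 CPM to 3.02, 3.30 and 3.81 CPM (-0.83). In each of the 5 genes the groups did not overlap, but DLK1 was short of the fold threshold without scramble replicate 1 (-0.44). Apart from MEG9, the genes of the locus are named after their values were seen, and 15.8% of the exon bases of MEG9 overlap other genes.

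Other lncRNAs did not move as a block. NEAT1, the scaffold of nuclear paraspeckles, was at 1391, 1371 and 1274 CPM against 601, 727 and 798 CPM (0.92), while its genomic neighbour MALAT1 (515, 681 and 518 CPM against 539, 692 and 615 CPM, -0.11) had overlapping groups and was not called. Genes on the other strand overlap 83.7% of the exon bases of MALAT1. LINC00511 was at 63.3, 56.6 and 61.2 CPM against 21.5, 19.01 and 22.9 CPM (1.51, adjusted p = 5.5e-13, edgeR), and FTX (1.01), LINC00909 (1.53) and ERVK9-11 (1.71) rose. The exons of FTX overlap those of other genes over 33.6% of their bases. LUCAT1, a lncRNA induced by stress, was at 3.88, 4.69 and 4.19 CPM against 10.4, 13.3 and 14.3 CPM (-1.57). GAS5, a snoRNA host, was at 121, 131 and 116 CPM against 192, 217 and 216 CPM (-0.76), and the imprinted antisense RNA KCNQ1OT1 (-1.02) fell. NEAT1, MALAT1, FTX and KCNQ1OT1 are named after their values were seen.

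**Figure D5:**
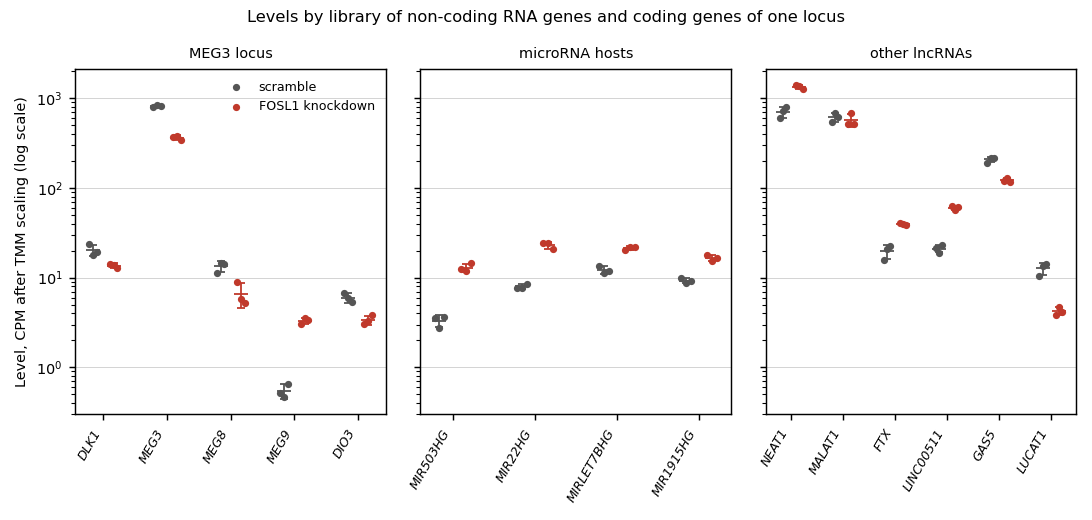
Levels (y axis, CPM after TMM scaling, log scale) of genes of the MEG3 locus (left), microRNA host genes (middle) and other lncRNAs (right) in each PANC-1 library, with 1 point per library and the mean and SD of the 3 libraries as bars. MEG3 lies at 339 to 381 CPM after FOSL1 knockdown (red) and 800 to 839 CPM in scramble cells (grey), MEG9 moves the other way, and only the groups of MALAT1 overlap.

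Antisense and divergent lncRNAs were set beside the coding gene that their name refers to. Of 71 antisense lncRNAs that fell and whose partner was tested, the partner fell in 19 cases, rose in 1 and was not called in 51. Of 37 that rose, the partner rose in 4 cases, fell in 3 and was not called in 30. Of the partners of 239 antisense lncRNAs that were not called, 26 fell and 33 rose. For divergent lncRNAs the partners of 8 that rose were all not called, and of 8 that fell 2 partners fell. PARD6G-AS1 (2.57, 3.85 and 4.24 CPM against 15.6, 15.4 and 12.6 CPM, -2.03) and its partner PARD6G (-0.61, -0.48 and short of the fold threshold without scramble replicate 1) fell together, as did HLA-F-AS1 (-2.80) and HLA-F (-1.25), and DNAH10OS (-2.20) and the dynein gene DNAH10 (-2.01) on the other strand. The exons of HLA-F-AS1 and of DNAH10OS overlap other genes over 25.7% and 30% of their bases. In other pairs the values parted, as in MAFG-DT, which was at 21.0, 19.8 and 17.9 CPM against 8.56, 7.42 and 9.07 CPM (1.23), and MAFG, a small MAF bZIP factor (-0.29, not called). CARS-AS1 fell (-2.60), while the log2 fold change of its partner CARS, a cysteinyl-tRNA synthetase gene, was 0.44 and not called.

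The AP-1 motif TGANTCA, which reads the same on both strands, was searched in RefSeq promoters, which run from 250 bases before to 50 after a gene's start. A promoter was found for 10629 of 13170 tested protein-coding genes. The motif stood in 5.81% of 1532 promoters of genes called lower, in 3.95% of 1064 promoters of genes called higher and in 4.12% of 8033 of genes not called, against 4.35% of all. For TGAGTCA or TGACTCA alone the shares were 3.98% of lower genes, 3.10% of higher genes and 2.7% of genes not called. Seen from the motif, 19.3% of the 462 genes that hold it were called lower and 9.09% higher, and of the 10167 genes without it 14.2% and 10.1%. The motif TGACGTCA, which CREB and ATF dimers bind and which cannot overlap TGANTCA, had the reverse order, with 2.15% of the promoters of lower genes, 3.76% of those of higher genes and 3.21% of all. These shares are descriptions of letters in short windows, and no distal sites were searched. Promoter stretches of 5 named genes are shown to place the motif (in capitals) in genes that fell and in genes that rose, on the strand of the gene (RefSeq, GRCh38.p14).
RAB3B, fell, chr1:51990803-51990829, minus strand: ctggaggtccTGAGTCAcctcggatta
GJA1, fell, chr6:121435588-121435614, plus strand: tcctcccagtTGAGTCAgtggcttgaa
CLDN4, fell, chr7:73830825-73830851, plus strand: gactggatagTGACTCAgggacccggg
ZNF239, rose, chr10:43574707-43574733, minus strand: cacgcgtcgcTGACTCAaagatggtcc
CLDN15, rose, chr7:101238005-101238031, minus strand: caatgaaagcTGAGTCAgagacagacg
Relative to the gene start, the motif begins at -119 in RAB3B, -48 in GJA1, -161 in CLDN4, -107 in ZNF239 and -219 in CLDN15.

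Genes with a match to the seed of the FOSL1 guide in the 3′ UTR were compared with genes without one. The guide was taken as the reverse complement of the listed target, which is not stated to be that of sh2. Coding sequences and shorter matches were not searched. The 7 bases GATGGTA stood in the 3′ UTR of 1012 tested protein-coding genes, of which 18.3% were called lower and 9.09% higher, with a median log2 fold change of -0.09. Of the 12130 genes without them 15.3% were called lower and 10.2% higher, with a median of -0.01. The 3′ UTRs differed in length, with medians of 3403 and 1187 bases. Among UTRs of 1000 to 3000 bases, 19.1% of 335 genes with the match and 15.6% of 4413 without it were called lower, with medians of -0.09 and -0.02. With a match of 8 bases, GATGGTAA, 16.1% of 342 genes were called lower and 8.19% higher, against 15.5% and 10.2% of the 12800 genes without it. For UTRs of 1000 to 3000 bases the share called lower was 15.1% with the match of 8 bases and 15.9% without it. The seed match of the scramble guide, TACTTCG, stood in 177 genes, of which 15.3% were called lower and 7.91% higher, with a median of -0.003. No test was made of these differences.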

How the data were processed

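RNA-seq was done on total RNA of 3 PANC-1 libraries with FOSL1 shRNA and 3 with scrambled shRNA. The deposited values are raw counts per gene. Per the labels, the authors used cutadapt, FastQC, STAR 2.7.2b, the GRCh38 genome and featureCounts 2.0.1. The annotation release and the strand setting are not given in the sources used here. The table has 60668 genes, of which 60295 were matched to GENCODE 44 by identifier for class and position. Genes that passed filterByExpr were fitted with edgeR 4.0.16 (TMM scaling, quasi-likelihood test, R 4.3.3), and p values were adjusted by Benjamini and Hochberg over all 16345 tested genes. An exact permutation test of 3 against 3 cannot go below 0.1. Depth was 18184808 to 19173421 counts. Levels are CPM, counts per 1000000 after TMM scaling, without correction for gene length, so they compare libraries and not genes.

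Classes were lists of symbols and annotation biotypes. The lists, the classes and the genes followed were chosen with earlier results of these data known. Named genes are FOSL1, the 8 largest rises and falls in each class and up to 3 more per family and direction, among called genes averaging 1 CPM or more whose groups do not overlap, the coding partners of named antisense genes, and the cell type markers. Genes named beyond this rule were chosen after their values were seen. The steps were tested on simulated data. The alternatives were DESeq2 1.42.0, limma-voom (limma 3.58.1), other scaling and filters, a stricter fold, a replicate block, all 12 libraries in 1 fit and leaving out each library. Columns with H1299 libraries entered only that shared fit. Results for a few genes are not reported here.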

Additional observations from a re-analysis of the deposited data

How the results depend on the processing

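The calls depended most on the fold threshold. With an absolute log2 fold change over 1 in place of 0.5, 460 genes were called higher and 1268 lower. Leaving out each library in turn gave 1679 to 1952 higher and 2352 to 2547 lower genes. The other alternatives (DESeq2, limma-voom, RLE scaling, other filters, all 12 libraries in 1 fit, no mitochondrial or most abundant genes) gave 1485 to 1980 higher and 2151 to 2784 lower genes. With replicate number as a block, 1744 genes were called higher and 2563 lower, of which 1721 and 2546 were also called without it. Deviations of same-numbered libraries had correlations of 0.00499, -0.0114 and -0.0108, so the numbers are not taken to pair the libraries. The 203 genes named include some, such as MALAT1, that were not called in the main fit and had no call to lose. Of the 203, 8 lost their call in 1 or more of the alternatives that keep the fold threshold. Genes that an alternative did not test, such as those its filter removed, were left out of that count. MALAT1, which was not called, ranged from -0.25 to 0.0037 when single libraries were left out. Genes with low counts have wide standard errors, so a missing call there says little, and reads of overlapping genes were not separated.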
